A study of Homo sapiens with 6 samples.

Results

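The genes described here encode the elastic fibre, matricellular and adhesive glycoproteins of the extracellular matrix (ECM). The members were taken by symbol from a list of 43 genes, and each of the 43 was present in the deposited count table of 23346 genes. Of these, 27 passed the filter on low counts (above 1 CPM, a count scaled to library size, in 3 or more of the 6 libraries) and were tested among 12186 genes. BT549 is a mesenchymal-like breast cancer cell line, and the study depleted it of basonuclin-2 (BNC2), a zinc finger protein, to ask which genes depend on BNC2. It compared 3 libraries of cells given BNC2 siRNA with 3 of cells given a negative control (NC) siRNA, each at 20 nM and taken 6 d later. All cells were of the same line and wild type for genotype by their labels, and poly(A) RNA was sequenced. The BNC2 siRNA was an equal mix of 3 sequences from the same supplier as the NC siRNA. The groups therefore differ in siRNA sequence as well as in BNC2, and these cannot be told apart by this design.

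Elastic fibres consist of an elastin core on a scaffold of fibrillin microfibrils, which also hold latent TGF-β through the latent TGF-β binding proteins. Fibulins help to join these parts. Matricellular proteins, such as the thrombospondins, tenascins, SPARC and periostin, are secreted into the matrix but mainly modulate how cells attach to it and respond to growth factors. Adhesive glycoproteins such as fibronectin bridge the matrix and the integrin receptors of the cell. In breast tumours these proteins come largely from fibroblasts, and mesenchymal-like cancer cells also make many of them.

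The siRNA sense strands are shown because they define the groups, with the core of 19 bases in capitals and the overhang in lower case.
BNC2 siRNA (1): GACUUGUGAUCAGUGUAAAtt
BNC2 siRNA (2): GGAAGACAUUCUAUGACAAtt
BNC2 siRNA (3): CCUCUGUACGAAGCCGAAAtt
NC siRNA: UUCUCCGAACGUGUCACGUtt
The matches to BNC2 lie in coding sequence on the minus strand of chromosome 9 of GRCh37, the assembly of hg19. They are in exon 4 (chr9:16583000-16583018), exon 6 (chr9:16436834-16436852) and exon 7 (chr9:16419045-16419063) of the 7 exons of the canonical transcript. No annotated transcript of another gene, and so none of the 43 members, contained a full match of 19 bases, and the NC siRNA matched no annotated transcript in full. BNC2 was measured at 65.6, 51.5 and 58.6 CPM with NC siRNA and 35.5, 36.6 and 41.6 CPM with BNC2 siRNA. All knockdown libraries were below all controls, at 0.646 of the control level (log2 change of BNC2 siRNA over NC siRNA -0.63 ± 0.09, standard error, SE; adjusted p = 8.2e-06).

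Libraries held 16093978 to 18246254 counts. The label "mesenchymal" was checked on markers. The 5 mesenchymal markers (VIM, CDH2, ZEB1, SNAI2 and S100A4) summed to 3326 to 3423 CPM in the NC siRNA libraries and 3943 to 4172 CPM in the BNC2 siRNA libraries, and 4 of the 5 were up-regulated (36.6% of all genes tested were) and S100A4 was down-regulated (36.2%; log2 change -0.62, adjusted p = 0.00095). The part of these markers in the results below was not tested. The 6 epithelial markers (CDH1, EPCAM, ESRP1, ESRP2, GRHL2 and CLDN4) summed to 0.421 to 0.789 and 0.814 to 1.35 CPM, of which EPCAM and ESRP1 had 0 counts in each library and 4 of the 6 had at most 3 counts in each library. ESRP2 had 8, 7 and 2 counts with NC siRNA and 13, 23 and 17 with BNC2 siRNA, and none of the 6 was tested. The 6 blood and endothelial markers (PTPRC, CD3E, CD14, PECAM1, CDH5 and VWF) summed to 1.99 to 2.59 and 0.903 to 1.28 CPM, and CDH5 had 0 counts in each library. Only CD14 of these was tested, and it was down-regulated. CD14 had 36, 30 and 23 counts with NC siRNA and 12, 9 and 11 with BNC2 siRNA, and passed the filter through the NC siRNA libraries alone. In these bulk libraries, fewer cells expressing a gene and less RNA per cell cannot be told apart.

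BNC2 knockdown shifted the glycoprotein genes in both directions, and the direction split several families. TNC rose 11.9-fold, and EDIL3, TGFBI, LTBP1, FBN2, HMCN1, LTBP2 and EFEMP1 each rose more than 2-fold. SPON2 and THBS2 each fell more than 2-fold, as did MGP and ECM1, which had few counts, and THBS1, the member with the highest counts, fell 1.87-fold. Of the 27 members tested, 26 (96.3%) were called at an adjusted p of at most 0.05 by edgeR's quasi-likelihood test, against 72.9% of all 12186 genes tested. There were 14 up-regulated (51.9%, against 36.6% of all genes tested) and 12 down-regulated (44.4%, against 36.2%). Among them, 8 rose and 4 fell at least 2-fold, where 8.07% and 10.1% of all genes tested did so. In 26 of the 27 there was no overlap between the libraries of the groups, as in 74.9% of all genes tested. The median absolute log2 fold change was 0.90 in the members tested and 0.44 in all genes tested. MGP was above 1 CPM in the NC siRNA libraries only, and ECM1 in 3 NC siRNA libraries and 1 BNC2 siRNA library, so both entered through the control group. Over genes above 1 CPM in all 6 libraries, 24 of 25 members were called (72.4% of 11326 genes), and 8 rose (7.47%) and 2 fell (6.98%) at least 2-fold. MGP and ECM1 thus make up 2 of the 4 falls of that size, and the remaining share of falls is near that of all genes.

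**Figure D1:**
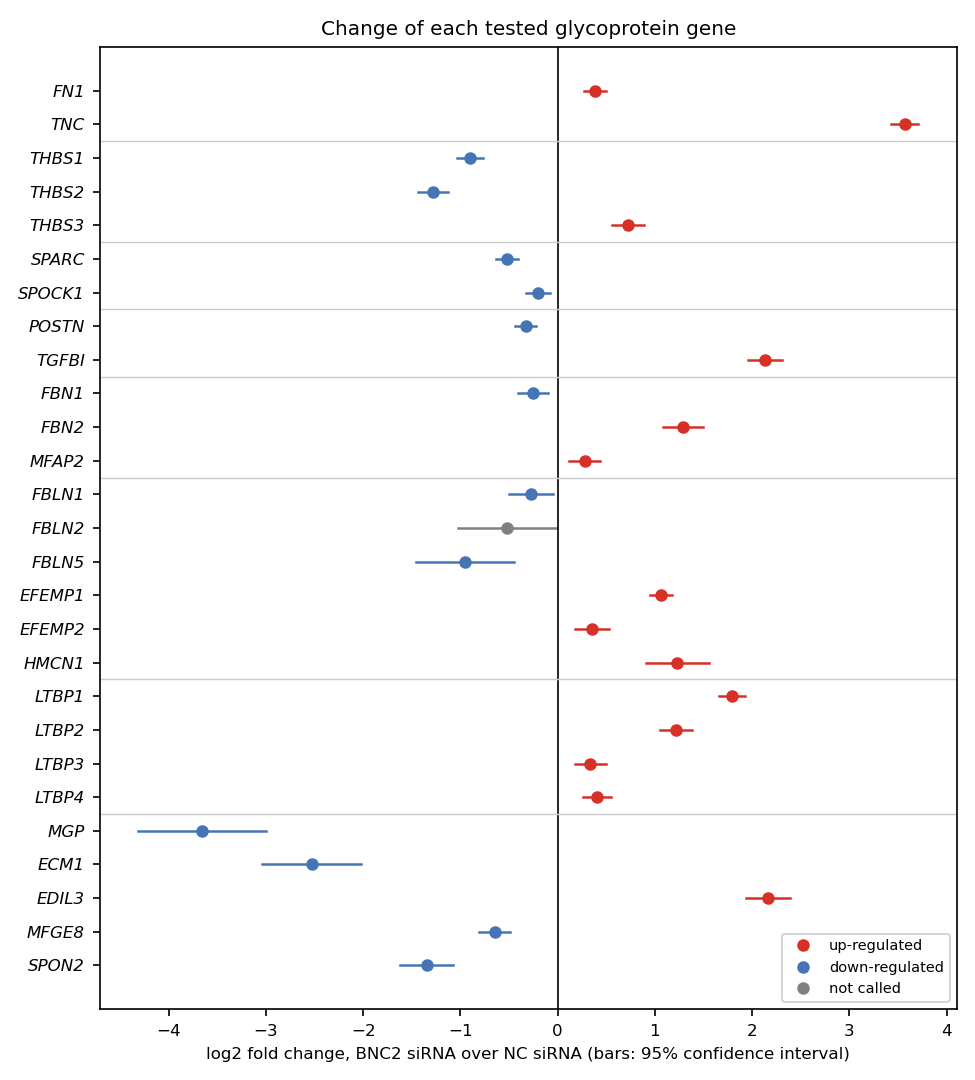
Log2 fold change of each of the 27 tested glycoprotein genes, BNC2 siRNA over NC siRNA (x axis), with the 95% confidence interval of edgeR's quasi-likelihood fit as bars and families separated by grey lines. Points to the right of 0 (14 genes, red) were up-regulated and points to the left (12 genes, blue) down-regulated, with FBLN2 (grey) not called.

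Promoter sequences, from 250 bases before to 50 bases after the start of the gene, were available from RefSeq (GRCh38.p14) for 23 of the 27 tested members. EFEMP1, HMCN1, MGP and SPOCK1 had no entry. The sequences of TNC, EDIL3 and TGFBI (the 3 largest rises) and of THBS2, POSTN and ECM1 (falls with a TATAAA match close to the start) are shown 5′ to 3′ on the strand of the gene, with capitals for motif matches on either strand. The motifs searched were the TATA box core TATAAA and its looser form TATANA (which contains it), the GC box GGGCGG and the CCAAT box. The others were TGANTCA, a loose form of the AP-1 site, and the TEAD core GGAATG. N stands for any base, so not each TGANTCA match is an AP-1 consensus site.
TNC: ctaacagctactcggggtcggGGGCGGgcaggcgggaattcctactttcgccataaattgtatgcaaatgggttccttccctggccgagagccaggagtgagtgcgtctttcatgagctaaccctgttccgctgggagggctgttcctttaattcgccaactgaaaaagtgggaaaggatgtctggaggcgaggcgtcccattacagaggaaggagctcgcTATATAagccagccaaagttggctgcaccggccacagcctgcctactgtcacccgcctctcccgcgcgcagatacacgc
EDIL3: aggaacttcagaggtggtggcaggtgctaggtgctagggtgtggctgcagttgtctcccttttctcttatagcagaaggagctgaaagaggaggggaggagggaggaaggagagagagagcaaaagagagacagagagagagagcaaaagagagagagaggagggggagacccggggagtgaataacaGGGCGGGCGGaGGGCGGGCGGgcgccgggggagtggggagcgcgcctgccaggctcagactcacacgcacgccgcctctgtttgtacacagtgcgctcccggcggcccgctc
TGFBI: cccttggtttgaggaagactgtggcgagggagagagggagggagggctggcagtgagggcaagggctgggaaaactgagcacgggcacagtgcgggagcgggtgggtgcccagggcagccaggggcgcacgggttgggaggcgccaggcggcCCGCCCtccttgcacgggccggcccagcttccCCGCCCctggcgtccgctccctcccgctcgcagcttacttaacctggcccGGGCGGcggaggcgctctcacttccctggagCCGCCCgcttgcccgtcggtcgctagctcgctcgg
THBS2: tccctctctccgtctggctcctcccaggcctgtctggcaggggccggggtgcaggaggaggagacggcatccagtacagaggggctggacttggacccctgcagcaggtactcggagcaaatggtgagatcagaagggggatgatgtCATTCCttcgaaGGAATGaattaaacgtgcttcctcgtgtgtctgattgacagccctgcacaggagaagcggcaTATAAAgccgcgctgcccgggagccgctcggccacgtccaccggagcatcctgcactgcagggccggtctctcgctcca
POSTN: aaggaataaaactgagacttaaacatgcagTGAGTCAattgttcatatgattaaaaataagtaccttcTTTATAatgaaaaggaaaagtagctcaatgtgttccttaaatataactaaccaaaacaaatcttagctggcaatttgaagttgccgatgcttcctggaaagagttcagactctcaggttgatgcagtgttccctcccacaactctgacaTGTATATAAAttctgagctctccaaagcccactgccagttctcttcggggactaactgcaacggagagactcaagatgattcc
ECM1: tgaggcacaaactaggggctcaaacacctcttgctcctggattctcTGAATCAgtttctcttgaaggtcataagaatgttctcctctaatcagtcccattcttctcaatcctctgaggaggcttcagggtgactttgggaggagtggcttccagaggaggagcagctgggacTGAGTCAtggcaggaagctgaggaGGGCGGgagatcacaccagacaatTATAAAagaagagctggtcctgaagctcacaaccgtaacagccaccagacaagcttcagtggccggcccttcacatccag
TNC lies on the minus strand at chr9:115118108-115118407, EDIL3 on the minus strand at chr5:84384831-84385130 and TGFBI on the plus strand at chr5:136028738-136029037. THBS2 lies on the minus strand at chr6:169253797-169254096, POSTN on the minus strand at chr13:37598719-37599018 and ECM1 on the plus strand at chr1:150507859-150508158.

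TATAAA was found in 4 of the 10 promoters of down-regulated members (THBS2, POSTN, ECM1 and SPON2) and in 0 of the 12 promoters of up-regulated members, against 5.28% of the 9698 promoters of genes tested and 3264 of all 27305 promoters. In THBS2 and POSTN a match on the gene strand began at -29 relative to the start and in ECM1 at -30. In SPON2 the match was at -198 and on the opposite strand, so it was not close to the start. ECM1, 1 of the 10, passed the filter through the NC siRNA libraries and was above 1 CPM in 1 BNC2 siRNA library. Without ECM1, the matches among down-regulated members were those of THBS2, POSTN and SPON2. The tallies of the other motifs below also include ECM1. With the looser TATANA the contrast was smaller, at 4 of 10 against 2 of 12 (TNC and MFAP2), where 9.34% of the promoters of genes tested and 19.7% of all promoters matched. The TNC match was also at -29, and those of MFAP2 were at -240 and further upstream. GGAATG was present in 5 of the 10 promoters of down-regulated members (THBS1, THBS2, SPARC, FBN1 and MFGE8) and in 1 of the 12 of up-regulated members (LTBP4), against 10.7% of the promoters of genes tested and 3836 of all 27305 promoters. GGGCGG was present in 6 of 10 and 10 of 12, with 71.4% of the promoters of genes tested and 44.6% of all promoters. CCAAT was present in 3 of 10 and 4 of 12 (37.1% of the promoters of genes tested and 35.7% of all), and TGANTCA in 2 of 10 and 1 of 12 (4.29% and 7.76%). The motif searches were chosen with the calls known, binding was not measured, and these matches are descriptions of letters.

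Of fibronectin and the tenascins, TNC changed far more than FN1. FN1, on chromosome 2 of GRCh37 from 216225163 to 216300796, encodes fibronectin, the ligand of the integrin formed by ITGA5 and ITGB1. FN1 stood at 832, 763 and 756 CPM with NC siRNA and 1029, 1017 and 1023 CPM with BNC2 siRNA. All libraries with BNC2 knockdown were above all controls, and the rise was 1.31-fold (log2 change 0.39 ± 0.06 SE, adjusted p = 8.9e-06). TNC, on chromosome 9 from 117781854 to 117880486, encodes tenascin-C, a matrix protein that weakens cell attachment to fibronectin and is known from healing wounds and tumour stroma. TNC was at 67.3, 58.2 and 61.8 CPM with NC siRNA and 732, 737 and 752 CPM with BNC2 siRNA. The groups were far apart, with a log2 change of 3.57 ± 0.07 (SE; adjusted p = 1.8e-16), and TNC was the gene with rank 13 by rise among the 12186 tested. Per read of FN1, there were 0.0809, 0.0763 and 0.0818 reads of TNC with NC siRNA and 0.711, 0.725 and 0.736 with BNC2 siRNA (exact two-sided permutation p = 0.1, the smallest that 3 libraries against 3 can give). Such a ratio within a library does not depend on how libraries are scaled. TNXB, the gene of tenascin-X, had at most 5 counts in each library and was not tested.

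The thrombospondins, calcium-binding glycoproteins that assemble as oligomers, did not move together. THBS1, on chromosome 15 from 39873280 to 39891667, encodes a trimer that binds CD36 and CD47 and can activate latent TGF-β. It fell from 3724, 3262 and 3316 CPM with NC siRNA to 1747, 1846 and 1925 CPM with BNC2 siRNA (log2 change -0.90 ± 0.06 SE, adjusted p = 1.7e-09). THBS2, on chromosome 6 from 169615875 to 169654145, encodes the other trimeric member, has the TATAAA shown above, and fell from 128, 111 and 107 to 46.1, 50.1 and 46.0 CPM (log2 change -1.28 ± 0.07 SE, adjusted p = 1.6e-10). In both genes each BNC2 siRNA library was below each NC siRNA library. THBS3 encodes a pentameric thrombospondin without the type 1 repeats of the trimers and went the other way, from 32.7, 36.9 and 30.2 to 55.3, 56.1 and 53.5 CPM (log2 change 0.72 ± 0.08 SE, adjusted p = 3.5e-07). The ratio of THBS3 to THBS1 counts was 0.00879, 0.0113 and 0.00911 with NC siRNA and 0.0317, 0.0304 and 0.0278 with BNC2 siRNA, a 3.09-fold change with no overlap. An exact two-sided permutation test of 3 libraries against 3 gave p = 0.1, the smallest value it can give, and adjusted p = 0.11 over the 11 ratios computed. THBS3 to THBS2 changed 4.02-fold in the same way (exact two-sided permutation p = 0.1). Where the first gene of a ratio rose and the second fell, each without overlap, the ratio has to separate as well. Its p at the minimum then adds nothing to the values of the single genes. The same holds for the ratios of TGFBI to POSTN, FBN2 to FBN1 and EDIL3 to MFGE8 below.

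Of 5 members of the SPARC family, which binds collagens and calcium, 2 were tested and both were down-regulated (36.2% of all genes tested were). SPARC, on chromosome 5 from 151040657 to 151066536, encodes a collagen-binding matricellular protein and was at 2366, 2338 and 2338 CPM with NC siRNA and 1678, 1655 and 1575 CPM with BNC2 siRNA. This was a 1.44-fold fall (log2 change -0.52 ± 0.05 SE, adjusted p = 1.6e-07), with tight and separate groups. SPOCK1, which encodes the proteoglycan testican, fell from 238, 212 and 217 to 186, 196 and 196 CPM, a log2 change of -0.20 (adjusted p = 0.0053). SPARCL1 and SMOC2 had 0 counts in each library, which allows up to 3 counts, so they were not detectable at this depth. SMOC1 had 3, 2 and 0 counts with NC siRNA and 0 in each library with BNC2 siRNA.

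The proteins with fasciclin domains, periostin and TGFBI, are close relatives that bind integrins and other matrix proteins. POSTN, whose promoter is shown above, was slightly lower after BNC2 knockdown, at 361, 367 and 360.2 CPM against 458, 452 and 456 CPM (log2 change -0.33 ± 0.05 SE, adjusted p = 2.3e-05). TGFBI, on chromosome 5 from 135364677 to 135399507, rose from 13.7, 15.2 and 14.6 to 69.0, 62.0 and 60.0 CPM (log2 change 2.13 ± 0.08 SE, adjusted p = 1.4e-12). The ratio of TGFBI to POSTN reads was therefore higher in each BNC2 siRNA library than in each NC siRNA library. There were 0.0299, 0.0337 and 0.0320 reads of TGFBI per read of POSTN with NC siRNA and 0.191, 0.169 and 0.167 with BNC2 siRNA (exact two-sided permutation p = 0.1, the smallest possible).

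**Figure D2:**
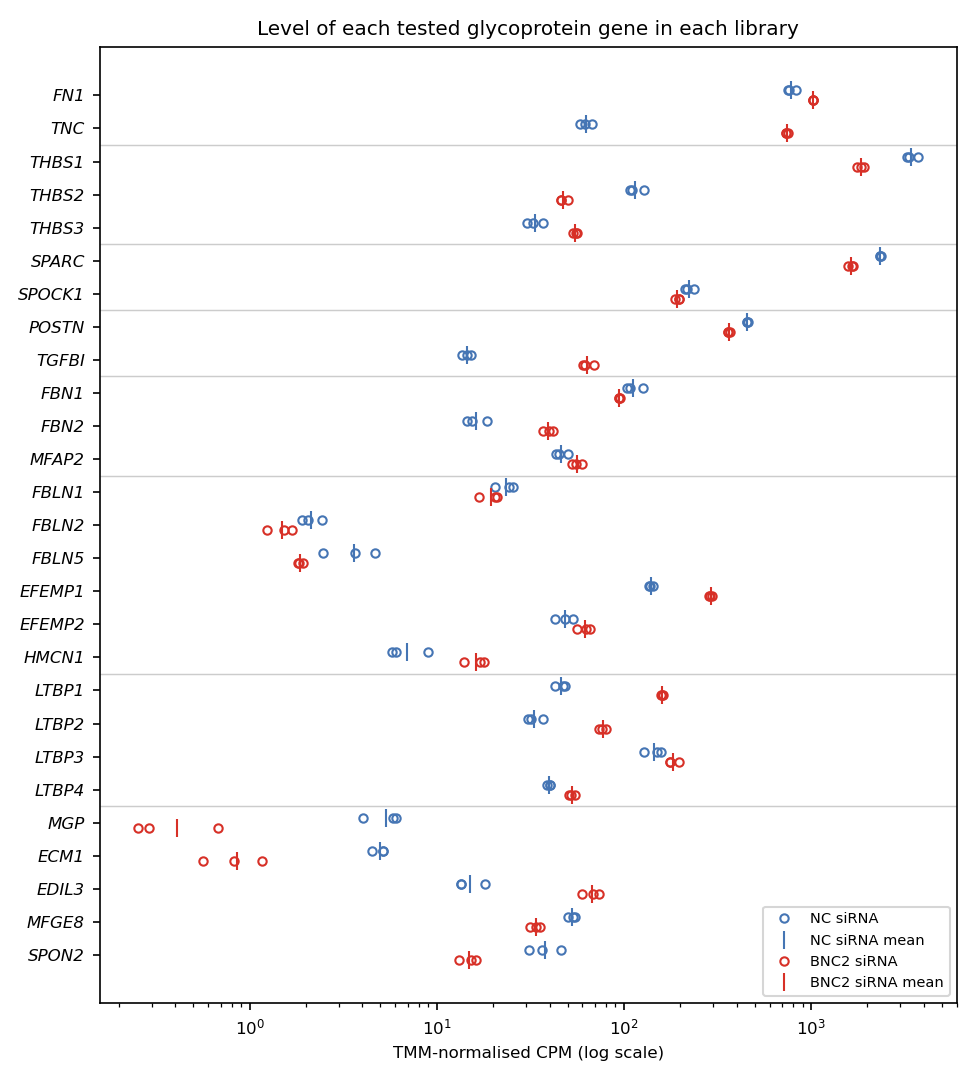
TMM-normalised CPM (log axis) of each tested glycoprotein gene in each library, as open circles for the 3 NC siRNA (blue) and 3 BNC2 siRNA (red) libraries and vertical ticks for group means. The circles of the 2 groups overlap in FBLN1 only.

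Among the elastic fibre genes, the fibrillins were expressed and elastin was almost absent from the counts. ELN, the elastin gene, had 1 count in 1 NC siRNA library and 0 in the others, where a count of 0 allows up to 3. FBN1, the gene of the main fibrillin of adult microfibrils, fell from 126, 103 and 107 to 94.2, 94.8 and 93.6 CPM (log2 change -0.25 ± 0.07 SE, adjusted p = 0.0044). FBN2, on chromosome 5 from 127593601 to 127994878, encodes the fibrillin known mainly from development and rose from 18.6, 14.4 and 15.5 to 36.9, 39.9 and 41.6 CPM (log2 change 1.29 ± 0.10 SE, adjusted p = 4.1e-09). The fibrillins thus moved in opposite directions, and each library of 1 group was apart from each of the other. FBN2 reads per FBN1 read were 0.147, 0.140 and 0.144 with NC siRNA and 0.392, 0.421 and 0.444 with BNC2 siRNA, a 2.91-fold change (exact two-sided permutation p = 0.1). Per kilobase of transcript, FBN2 remained below FBN1 in both groups, at 1.48 ± 0.197 against 9.67 ± 1.07 CPM per kb with NC siRNA and 3.61 ± 0.216 against 8.11 ± 0.0508 CPM per kb with BNC2 siRNA (mean ± SD, n = 3). MFAP2, which encodes a small glycoprotein of microfibrils, rose from 43.5, 45.0 and 50.4 to 59.7, 55.4 and 52.9 CPM (log2 change 0.28, adjusted p = 0.0035). MFAP4 and MFAP5 had at most 11 and 7 counts in a library, and EMILIN1 at most 6. EMILIN2, an elastin microfibril interface protein gene, had 18, 19 and 15 counts with NC siRNA and 1, 9 and 7 with BNC2 siRNA. It was too low for the filter, and where the filter was dropped its log2 fold change was -1.52 (adjusted p = 0.0036).

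The fibulins, which connect elastin, microfibrils and basement membranes, also divided. EFEMP1, on chromosome 2 from 56093102 to 56151274, encodes fibulin-3 and was at 138, 135 and 142 CPM with NC siRNA and 289, 296 and 285 CPM with BNC2 siRNA. It rose 2.09-fold (log2 change 1.06 ± 0.05 SE, adjusted p = 3.1e-11). EFEMP2 encodes fibulin-4, which brings lysyl oxidase to elastin, and rose less, from 42.9, 53.3 and 48.3 to 65.5, 56.2 and 62.9 CPM (log2 change 0.35, adjusted p = 0.0011). HMCN1, on chromosome 1 from 185703523 to 186160081, encodes the very large protein hemicentin and rose from 8.96, 5.77 and 6.02 to 14, 17.8 and 17.1 CPM (log2 change 1.23 ± 0.15 SE, adjusted p = 1.7e-06). Of the genes named FBLN, those called went down. FBLN5, which is needed for elastic fibre assembly, fell from 2.48, 4.65 and 3.67 to 1.80, 1.92 and 1.85 CPM (log2 change -0.95 ± 0.24 SE, adjusted p = 0.0018). FBLN1 had 20.6, 24.2 and 25.6 CPM with NC siRNA and 21.1, 16.7 and 20.4 CPM with BNC2 siRNA, where the highest BNC2 siRNA library exceeded the lowest NC siRNA library. It was called (log2 change -0.28, adjusted p = 0.028), but not without BNC2 siRNA replicate 2 (log2 fold change -0.17, adjusted p = 0.18), NC siRNA replicate 2 (log2 fold change -0.27, adjusted p = 0.06) or NC siRNA replicate 3 (log2 fold change -0.23, adjusted p = 0.089). FBLN2 was at 2.42, 1.90 and 2.05 CPM with NC siRNA against 1.69, 1.24 and 1.53 CPM with BNC2 siRNA and was the only tested member not called (log2 change -0.52, 95% confidence interval -1.02 to -0.01, adjusted p = 0.06). With the likelihood ratio test of edgeR it was called (log2 fold change -0.52, adjusted p = 0.04), as it was with scaling by total counts only (adjusted p = 0.034) and with counts of both strands (adjusted p = 0.049).

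All 4 latent TGF-β binding proteins were up-regulated (36.6% of all genes tested were), by unequal amounts. These proteins resemble fibrillins, and LTBP1, LTBP3 and LTBP4 carry the latent TGF-β complex into the matrix, whereas LTBP2 does not bind it. LTBP1, on chromosome 2 from 33172020 to 33624576, rose from 48.7, 46.9 and 42.8 CPM with NC siRNA to 157, 162 and 159.8 CPM with BNC2 siRNA (log2 change 1.79 ± 0.06 SE, adjusted p = 5.2e-13). LTBP2, on chromosome 14 from 74964886 to 75079081, rose from 36.8, 31.8 and 30.8 to 73.9, 80.6 and 76.3 CPM (log2 change 1.22 ± 0.08 SE, adjusted p = 4.5e-10). The other members rose less. LTBP3 went from 127, 157 and 150.3 to 197, 177 and 176 CPM (log2 change 0.34, adjusted p = 0.00066), and LTBP4 from 40.0, 38.6 and 40.1 to 55.0, 52.0 and 50.5 CPM (log2 change 0.41, adjusted p = 4.7e-05). Relative to LTBP3 reads of the same library, LTBP1 reads were 0.382, 0.298 and 0.285 with NC siRNA and 0.797, 0.918 and 0.908 with BNC2 siRNA, with no overlap (exact two-sided permutation p = 0.1). The same ratio for LTBP4 overlapped between the groups, at 0.314, 0.245 and 0.267 and 0.280, 0.294 and 0.287 (exact two-sided permutation p = 0.6). LTBP3 had the highest level per kilobase of the 4 in both groups, at 30.0 ± 3.24 and 37.9 ± 2.45 CPM per kb. LTBP1 was below LTBP4 with NC siRNA (7.10 ± 0.464 against 7.98 ± 0.165 CPM per kb) and above it with BNC2 siRNA (24.6 ± 0.408 against 10.6 ± 0.461 CPM per kb; mean ± SD, n = 3).

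**Figure D3:**
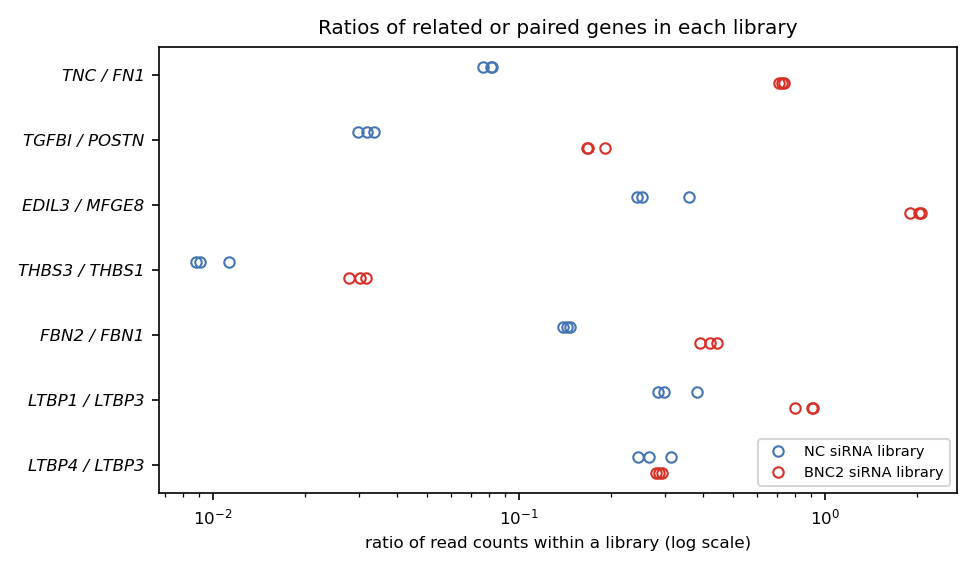
Ratio of the read counts of 2 glycoprotein genes within each library (log axis), for the 3 NC siRNA (blue) and 3 BNC2 siRNA (red) libraries. Each ratio drawn is higher in each BNC2 siRNA library than in each NC siRNA library, except LTBP4 to LTBP3, where the libraries overlap. Of all 11 ratios computed, some of which are not drawn, 9 are higher in each BNC2 siRNA library. THBS2 to THBS1, not drawn, is lower in each.

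EDIL3 and MFGE8 encode related secreted proteins with discoidin domains that bridge integrins containing the αv chain and phosphatidylserine on cell surfaces. EDIL3, on chromosome 5 from 83236373 to 83680698, rose from 18, 13.4 and 13.5 to 59.9, 68.4 and 73.4 CPM (log2 change 2.17 ± 0.11 SE, adjusted p = 2.6e-11). MFGE8 fell from 50.1, 54.9 and 53.3 to 31.6, 33.8 and 35.7 CPM (log2 change -0.65 ± 0.07 SE, adjusted p = 6.4e-07). Reads of EDIL3 were fewer than those of MFGE8 in each NC siRNA library (ratios of 0.360, 0.244 and 0.253) and more in each BNC2 siRNA library (1.90, 2.03 and 2.06), a 7.08-fold change (exact two-sided permutation p = 0.1). Per kilobase the means were 3.11 ± 0.551 and 27.3 ± 1.27 CPM per kb with NC siRNA, and 14 ± 1.43 and 17.4 ± 1.07 CPM per kb with BNC2 siRNA, so the order by level did not reverse.

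The remaining secreted glycoproteins that were tested were lower after knockdown. MGP, on chromosome 12 from 15033798 to 15038791, encodes matrix Gla protein, an inhibitor of calcification. Its counts were 72, 104 and 101 with NC siRNA against 5, 12 and 4 with BNC2 siRNA, with a log2 change of -3.66 ± 0.31 (SE; adjusted p = 1.7e-08). Without BNC2 siRNA replicate 2, which had the most counts of its group, this was -4.24. MGP passed the filter through the NC siRNA libraries alone, and it was not tested when any of these was left out. ECM1, on chromosome 1 from 150480538 to 150486265, encodes a glycoprotein of skin and other matrices. It also passed the filter through the NC siRNA libraries, and fell from 5.18, 4.48 and 5.18 to 1.16, 0.564 and 0.828 CPM (log2 change -2.53 ± 0.24 SE, adjusted p = 6.7e-08). SPON2, on chromosome 4 from 1160720 to 1202750, encodes mindin, a ligand of integrins on immune cells. It fell from 30.9, 46.1 and 36.7 to 16.3, 13.2 and 15.3 CPM (log2 change -1.35 ± 0.13 SE, adjusted p = 6.9e-08). The libraries of the groups were separate in each of these 3 genes.

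Several classical members were barely or not expressed in BT549 cells. SPP1, the gene of osteopontin, had at most 4 counts in a library, VTN (vitronectin) at most 5, NPNT (nephronectin) at most 3 and SPON1 at most 1. Of the CCN genes among the members, NOV had at most 18 counts, WISP2 at most 6, and WISP1 5 counts in 1 NC siRNA library and 0 elsewhere. None of these genes was tested. The CCN genes CYR61 and CTGF are not members and are counted with the family relatives below. Named after their values were seen, both were up-regulated by edgeR's quasi-likelihood test (log2 change 1.36, adjusted p = 2.1e-12, and 0.47, adjusted p = 3.9e-06). With EMILIN2 and the other low members above, 16 of the 43 did not pass the filter, and without the filter EMILIN2 was the only one of them that was called.

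**Figure D4:**
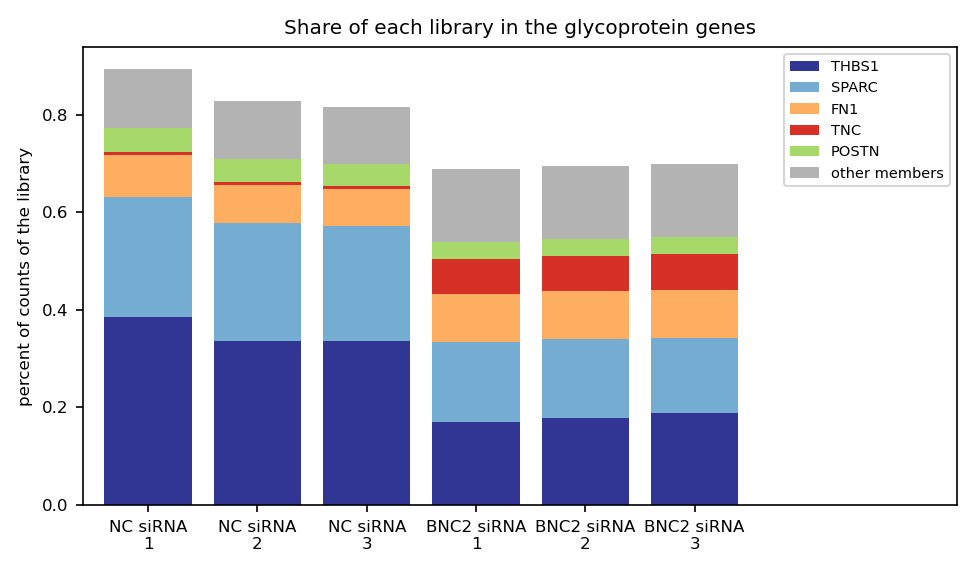
Share of the counts of each library that fell on the 43 glycoprotein genes (y axis, percent), stacked by gene for the 5 with the most counts. The total is 0.816% to 0.894% in the NC siRNA libraries and 0.689% to 0.698% in the BNC2 siRNA libraries, with less THBS1 and SPARC and more TNC and FN1.

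As a whole, the 43 genes took 0.894, 0.828 and 0.816 percent of the counts of the NC siRNA libraries and 0.689, 0.695 and 0.698 percent of the BNC2 siRNA libraries. Their composition also changed. THBS1 held 43.2, 40.6 and 41.1 percent of the counts of the 43 genes with NC siRNA and 24.7, 25.8 and 26.9 percent with BNC2 siRNA. TNC went from 0.780, 0.724 and 0.765 percent to 10.3, 10.3 and 10.5 percent. Without THBS1 and SPARC, the summed level of the other 41 genes was 2537, 2439 and 2424 CPM with NC siRNA and 3656, 3655 and 3658 CPM with BNC2 siRNA. THBS1 and SPARC were left out of this sum after their values were seen, as the members with the most counts, and both fell.

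Levels of different genes were compared per kilobase of the canonical transcript. In the NC siRNA libraries the order began with SPARC (680.2 ± 4.68 CPM per kb), THBS1 (441 ± 32.4), POSTN (138 ± 0.977), FN1 (93.4 ± 5.01) and EFEMP1 (51.2 ± 1.30; mean ± SD, n = 3), and the libraries of neighbours in this part of the order did not overlap. In the BNC2 siRNA libraries it was SPARC (474 ± 15.7), THBS1 (236 ± 11.4), FN1 (122 ± 0.715), POSTN (109.9 ± 1.13), EFEMP1 (107 ± 2.13) and TNC (87.1 ± 1.23), where POSTN and EFEMP1 overlapped. TNC moved from rank 17 to rank 6 of the 27 tested members, LTBP1 from rank 18 to 11 and TGFBI from rank 19 to 12. THBS2 moved from rank 12 to 19. The lowest tested member was HMCN1 with NC siRNA (0.377 ± 0.0965 CPM per kb), which overlapped FBLN2, and MGP with BNC2 siRNA (0.247 ± 0.142 CPM per kb), which also overlapped FBLN2.

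**Figure D5:**
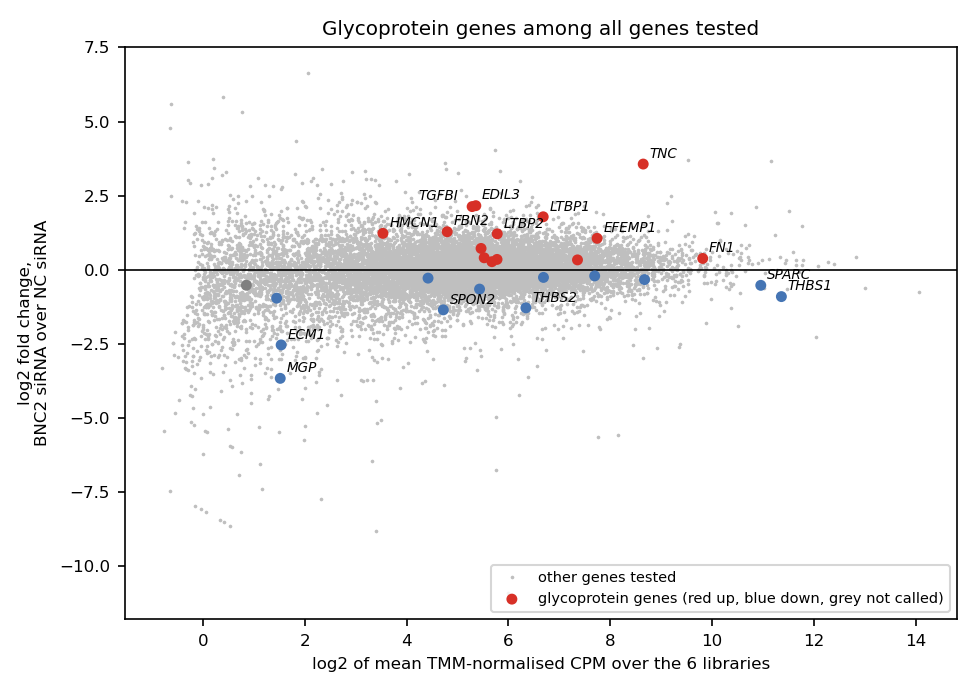
Log2 fold change (y axis) against log2 of the mean CPM over the 6 libraries (x axis) for the 12186 genes tested (grey dots), with the 27 tested glycoprotein genes on top (red up-regulated, blue down-regulated, dark grey not called). TNC stands near the upper edge at high abundance, at a log2 change of 3.57, and THBS1 and SPARC are among the most abundant genes.

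Genes that work with these glycoproteins were counted from lists, each by the same fit across all genes. Of 25 family relatives, 24 were in the table and 10 were tested, with 5 up-regulated and 5 down-regulated, where 36.6% and 36.2% of all genes tested were. MATN1, MATN3 and MATN4, 3 of the 5 that fell, were not above 1 CPM in all 6 libraries. MATN1 and MATN4 exceeded 1 CPM in the NC siRNA libraries only, and MATN3 also in part of the BNC2 siRNA libraries. Over genes above 1 CPM in all 6 libraries, 5 relatives were up-regulated and 2 down-regulated (37.9% and 34.5% of all such genes). The relative with the largest change among those above 5 CPM was MATN2, a matrilin of filamentous networks, which rose from 16.6, 16.2 and 17.0 to 99.8, 107 and 91.4 CPM (log2 change 2.58, adjusted p = 6.8e-14). Of 15 receptors of these proteins, 11 were tested, with 8 up-regulated (36.6% of all genes tested) and 3 down-regulated (36.2%), and a median log2 fold change of 0.35 against 0.001 in all genes tested. The 3 that fell, named after their values were seen, were ITGB1, SDC4 and CD36. For CD36, a receptor of THBS1, 45, 64 and 51 reads were counted with NC siRNA against 3, 2 and 0 with BNC2 siRNA. CD36 was above 1 CPM in the NC siRNA libraries only, and no fold is given for so few counts. Without it, 8 of 10 receptors were up-regulated and 2 down-regulated. SDC4, a syndecan that assists fibronectin attachment, fell from 106, 102 and 97.6 to 36.9, 39.2 and 37.1 CPM (log2 change -1.43, adjusted p = 8.4e-12), and ITGB1 fell, with a log2 change of -0.49 (adjusted p = 3.6e-07).

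Of 17 genes for elastic fibre assembly and latent TGF-β, 16 were in the table and 11 were tested, with 4 rises (36.4%, against 36.6% of all genes tested) and 6 falls (54.5%, against 36.2%). The 10 called of 11 stand against 72.9% of all genes tested, and each of the 11 was above 1 CPM in all 6 libraries. ADAMTSL5 was not called (log2 change 0.27, 95% confidence interval -0.11 to 0.65, adjusted p = 0.19). TGFB3, a TGF-β ligand held by latent TGF-β binding proteins, fell from 25.9, 19.4 and 21.6 to 4.71, 5.70 and 4.78 CPM (log2 change -2.13 ± 0.13 SE, adjusted p = 4e-10). No other gene of this list reached an absolute log2 change of 2. Those that reached 1, named after their values were seen, were ADAMTS10 (log2 change -1.98, adjusted p = 5.1e-09), FKBP10 (1.55, adjusted p = 6.4e-13) and LOXL1 (-1.06, adjusted p = 2.8e-09).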

How the data were processed

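The counts were deposited by the authors without normalisation. The authors sequenced poly(A) RNA as single-end reads, aligned these with STAR 2.6.1d to hg19 with the iGenomes UCSC annotation, and counted uniquely mapped reads per gene. The deposited table equals the reverse-strand column of the library tables in all 23346 genes. Reads that map to several places do not enter such counts, which lowers genes with near-identical copies. Reads assigned to no gene (37.7% to 41.1% of a library) entered neither library sizes nor tests.

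Genes above 1 CPM in 3 or more of the 6 libraries were scaled by TMM and compared with edgeR 4.0.16 (quasi-likelihood test, no replicate block) in R 4.3.3, with Benjamini-Hochberg adjustment over 12186 genes and a call at 0.05. CPM values are TMM-normalised. The likelihood ratio test used by the authors, DESeq2 1.42.0 and further settings were alternatives. The standard error is the log2 fold change divided by the square root of F. Depths of 16093978 to 18246254 counts place 3 counts, the floor of a count of 0, below 1 CPM, and intervals and floors cover counting error only where they rest on counts. The methods describe the libraries as biological replicates.

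The members, families and lists were chosen with earlier results of these data known. Values in each library were to be given for members called with an absolute log2 fold change of at least 1 and at least 5 CPM in the higher group, for FN1 and for the 3 members with the most CPM, and of the other lists for genes with at least 2 and 5 CPM. ECM1, just below 5 CPM, and further members and genes of the other lists were added after their values were seen. Positions and transcript lengths are from GENCODE release 44 mapped to GRCh37, in which 42 of the 43 symbols were placed. The scripts were tested on simulated data. Protein sequences were not used here.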

Additional observations from a re-analysis of the deposited data

How the results depend on the processing

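Of the 27 members tested, 25 kept their direction and their side of the threshold under each of the 14 alternatives that gave them a value, and FBLN1 and FBLN2 did not. FBLN2 was called under the likelihood ratio test (log2 fold change -0.52, adjusted p = 0.04), with scaling by total counts only (log2 fold change -0.59, adjusted p = 0.034) and with counts of both strands (log2 fold change -0.55, adjusted p = 0.049). MGP fell below the filter when any NC siRNA library was left out, because 2 libraries then exceeded 1 CPM. The median log2 fold change of the members tested was 0.28. It was -0.25 without the low-count filter, which tests 41 members, 0.046 with filterByExpr (28 members), 0.051 with counts of both strands (29 members), and between 0.22 and 0.33 when 1 library was left out. The median over members thus turns with the number of weakly expressed members and is not a stable summary of direction. Same-numbered replicates did not deviate together (correlations of -0.208, -0.081 and -0.130), so the numbers were not taken as pairs, and with the replicate block 8400 genes and the same 26 members were called. Leaving out 1 library gave 8084 to 8596 calls over all genes, 14 up-regulated members in each case and 10 to 12 down-regulated members. Members with few counts, such as MGP, ECM1, FBLN2 and FBLN5, have the widest intervals.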
